A study of Mus musculus with 7 samples.

Results

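Cells selected as coelomic epithelium were examined at E11.5 and E12.5 in single-cell transcriptomes of wild-type C57BL/6J mice. This sheet of cells lines the body cavity and covers the developing gonad. Cells were selected on measured counts. The libraries held 8293 and 4744 called cells, of which 7972 and 4244 had at least 1000 detected genes and are the cells counted here. The selected cells among them had at least 3 UMIs (counted RNA molecules) of Upk3b, at most 1 UMI of Wnt6, none of Foxl2 and at most 1 of Dazl and Pou5f1 together. In the E11.5 gonad 405 of 7972 such cells passed (5.08%, 95% exact binomial interval 4.61 to 5.59), and in the E12.5 ovary 322 of 4244 (7.59%, 6.81 to 8.43). In all, 727 of 12216 cells passed. Of the 405 at E11.5, 168 had 2 or more UMIs of Foxf1, Hand1 and Mab21l2 together and are not called gonadal epithelium. The cells of a library with at least 1000 genes that did not pass are called the other cells. The whole series held 52542 called cells in 7 libraries.

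Each age was 1 library of pooled gonads, dissociated in trypsin for 20 minutes and captured in droplets. The E11.5 library was labelled gonad and the E12.5 library ovary. With 1 library per age there was no replicate check, and no test was made. Age and library cannot be told apart. The mix of sexes also differed between the libraries, and only an alternative limited to cells with Xist and no Y-linked UMI bears on it. Levels are UMIs of a gene per 1000000 summed UMIs (CPM). Intervals are exact Poisson, binomial or conditional ones at 95%, and cover counting error only. The selected cells held 5704822 UMIs at E11.5 and 4796861 at E12.5. Their median depth was 12477 and 13494 UMIs per cell, against 10168 and 11290 in the other cells. The pair of libraries shared 56 cell barcodes among all called cells, and no shared barcode was a selected cell in both.

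The coelomic epithelium is a mesothelium, a thin epithelium that lines the body cavity and covers the organs within it. Over the genital ridge it thickens, and its cells are known to enter the gonad and give rise to supporting and interstitial lineages. The transcription factors Wt1, Lhx9, Emx2, Gata4 and Nr5a1 are needed for the early gonad, while Foxf1 marks the splanchnic mesoderm, from which the wall and mesothelium of the gut arise.

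Upk3b, a uroplakin found in mesothelial cells (chromosome 5, 136038496 to 136046487, plus strand, GRCm38), chose the cells, so its level is a description. It stood at 385 CPM (369 to 402) at E11.5 and 396 CPM (379 to 415) at E12.5, with a median of 5 UMIs per selected cell at both ages. At the edge of the rule, 114 cells at E11.5 had exactly 3 UMIs and 177 cells that met the rest of the rule had 2. At E12.5 these numbered 77 and 80. The 19 other genes of the coelomic epithelium list summed to 1711 CPM just inside the threshold and 1667 just outside at E11.5, and to 2234 and 2156 CPM at E12.5. In all selected cells the sum was 1869 and 2401 CPM, and in the other cells 492 and 789.6 CPM. Cells with 2 UMIs of Upk3b thus lay close to those with 3.

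Tm4sf5, Lhx9 and Hoxd9 were picked with earlier results of these data known, as was Upk3b. Their levels are thus a description and not an independent check of the name. Tm4sf5, a membrane protein with 4 transmembrane segments (chromosome 11, 70505244 to 70511178, plus strand), was at 45.05 CPM (39.7 to 50.9) at E11.5 and 148 CPM (137 to 159) at E12.5, against 3.94 and 10.96 CPM in the other cells. Lhx9, a LIM homeobox factor of the gonad surface (chromosome 1, 138825186 to 138848577, minus strand), was at 136 CPM (127 to 146) and 323 CPM (307 to 339), against 35.6 and 119.6 CPM. Hoxd9, a posterior Hox gene (chromosome 2, 74697727 to 74700208, plus strand), was at 70.3 CPM (63.6 to 77.5) and 194 CPM (182 to 207), against 33.3 and 49.2 CPM. Over all selected cells, the 3 markers were above the other cells at both ages, Hoxd9 by under 2-fold at E11.5 on CPM + 5. The E11.5 cells with splanchnic genes, described with the Foxf1 set, were an exception for Lhx9 and Hoxd9. Msln, a marker of mature mesothelium, had no UMI at either age, and 3 UMIs would have been 0.526 and 0.625 CPM.

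Since the cells were chosen within each library, their contrast with the other cells is a description. Of 5630 genes with at least 20 CPM in either group in each library, 44 (0.782%) were at least 2-fold above the other cells in both libraries, on a scale of CPM + 5, and 44 (0.782%) at least 2-fold below. Of the coelomic epithelium list other than Upk3b, 15 genes were measurable, 11 were above and none below. Hoxd9, Wt1 and Krt18 were among those not above. The list was chosen with earlier results of these data known and holds Tm4sf5 and Lhx9, so its count is no check of the name. Upk1b, a uroplakin of the tetraspanin family, was at 52.1 CPM (46.3 to 58.3) at E11.5 and 59.4 CPM (52.7 to 66.7) at E12.5, 17.1-fold the other cells at both ages. Lrrn4, a leucine-rich repeat protein of mesothelium, was at 57.3 CPM (51.3 to 63.9) and 56.5 CPM (49.97 to 63.6), 9.62-fold and 9.39-fold the other cells. The intervals of both genes overlapped between the ages.

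The 15 genes that led the contrast were Upk1b, Lrrn4, Myl7, Krt19, Tmem151a, Tmem108, Krt7, Myrf, Aplp1, Stk26, Net1, Tmem98, Cdh3, Sema3c and Lhx9. Krt19, a keratin of simple epithelia, was at 99.2 CPM (91.2 to 107.7) and 160.1 CPM (149 to 172), against 14.1 and 17.5 CPM in the other cells. Myl7, the atrial myosin light chain, was at 107 CPM (98.3 to 115) and 158 CPM (147 to 169), against 15.1 and 18.3 CPM. Among junction genes, Cdh3 (P-cadherin) was at 66.1 and 61.7 CPM, while Cdh1 (E-cadherin) had 5 UMIs at E11.5 and none at E12.5. The polarity gene Crb2 was at 28.6 and 46.7 CPM and was above the other cells in both libraries. Epcam, an epithelial adhesion molecule, was at 9.82 and 12.9 CPM, below the other cells (41.0 and 72.2 CPM). Of 9 measurable polarity and junction genes, 2 were above the other cells in both libraries (Cdh3 and Crb2) and 1 below (Epcam). The share of all genes tested was 0.782% each way.

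**Figure D1:**
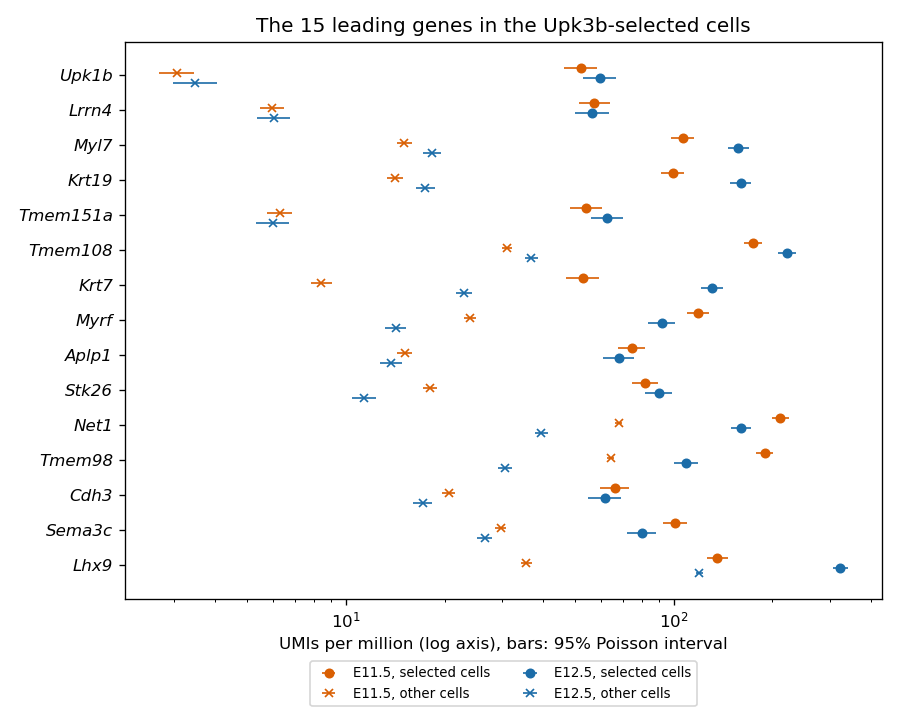
Levels of the 15 leading genes on a log axis in CPM, with circles for the selected cells, crosses for the other cells of each library and bars for 95% Poisson intervals. For each gene and age the circle lies to the right of the cross, with Upk1b at 52.1 and 59.4 CPM against 3.05 and 3.47 CPM.

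The promoters of these genes were searched because the genes were high in the same cells. RefSeq (GRCm38.p6) gave a promoter for 12 of the 16 genes made up of Upk3b and the 15 leading genes. In the 250 bases before the RefSeq start, on either strand, the TEAD motif GGAATG was in 4 of these genes (Lrrn4, Myl7, Tmem108 and Upk3b) and in 12.6% of 32851 promoters. The GC box GGGCGG was in 8 and in 32.7% of all, and the WT1 and EGR type motif GNGGGNGNG, which can overlap a GC box, in 6 and in 40.1%. The GATA motif AGATAA, the NR5A1 motif CAAGGTCA, the LIM homeobox motif TAATTA and the TATA box TATAAA were in none of the 12 genes searched, and in 9.99%, 1.33%, 4.84% and 12.4% of all promoters. Upk3b (chr5:136038246-136038495, plus strand) and Lrrn4 (chr2:132880863-132881112, minus strand) are shown because the gene that chose the cells and a leading gene both hold the TEAD motif. Each reads 5′ to 3′ along its gene with the match in capitals, and in Upk3b the match is on the opposite strand.
Upk3b: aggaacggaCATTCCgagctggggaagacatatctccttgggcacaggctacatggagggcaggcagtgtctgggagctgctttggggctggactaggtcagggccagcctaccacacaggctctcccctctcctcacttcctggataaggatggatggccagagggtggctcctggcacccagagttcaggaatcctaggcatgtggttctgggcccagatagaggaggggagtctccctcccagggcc
Lrrn4: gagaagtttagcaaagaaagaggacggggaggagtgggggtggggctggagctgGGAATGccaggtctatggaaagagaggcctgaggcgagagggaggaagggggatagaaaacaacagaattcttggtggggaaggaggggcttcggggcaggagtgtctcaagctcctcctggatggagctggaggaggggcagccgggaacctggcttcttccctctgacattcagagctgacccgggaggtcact

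The selected cells of E11.5 fell into groups with and without splanchnic genes. Foxf1 (chromosome 8, 121084386 to 121088144, plus strand), Hand1 and Mab21l2 are regulators of splanchnic and lateral plate mesoderm and are called the Foxf1 set here. The set and the split by it were chosen after their values were seen, from the 10 genes lowest at E12.5 relative to E11.5, so their own difference is a description. At E11.5, 209 of 405 selected cells (51.6%, 46.6 to 56.6) had no UMI of the set, 28 had 1, and 168 (41.5%, 36.6 to 46.5) had 2 or more, among them 101 with at least 8. At E12.5, 321 of 322 had none, 1 had 1 and no cell had more. Of the other cells, 1697 (22.4%, 21.5 to 23.4) had 2 or more at E11.5 and 22 (0.561%, 0.352 to 0.848) at E12.5. Cells with the set were therefore common in the whole E11.5 library and rare in the whole E12.5 library.

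**Figure D2:**
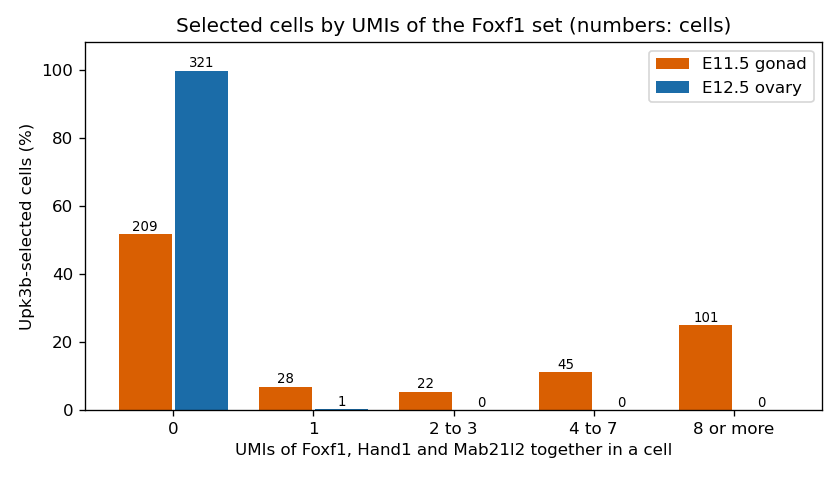
Percentage of selected cells (bars from 0) by the UMIs of Foxf1, Hand1 and Mab21l2 together in a cell, with the number of cells above each bar. At E11.5, 209 cells had none and 101 had 8 or more, while at E12.5 321 of 322 had none.

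With every cell thinned to 5000 UMIs, which left out 15 and 1 shallower selected cells, Foxf1 had a UMI in 25.6% (21.4 to 30.3) of 390 selected cells at E11.5 and in none of 321 at E12.5. Without thinning the E11.5 share was 37.0%. Immune cells (at least 3 UMIs of the 7 immune markers together, no Upk3b), a class added after the data were seen that should lack it, gave 1.49% of 134 cells and none of 53, at median depths of 13547 and 11352 UMIs. The share in the selected cells of E11.5 was above that background.

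Gonadal genes were lower, to different extents, in the E11.5 selected cells that carried the set. Lhx9 was at 31.2 CPM in cells with 2 or more UMIs of the set and at 222 CPM in cells with none, 7.11-fold (5.63 to 9.09) lower. Emx2, a homeobox gene of the urogenital ridge, was at 11.2 against 179 CPM, 16.04-fold (11.03 to 24.2) lower. Wt1, a zinc finger factor of urogenital mesothelium, was at 198 against 533 CPM, 2.68-fold (2.43 to 2.97) lower. The GATA factors of the gonad and Tcf21 differed by less. Gata4 was at 21.6 against 40.6 CPM, 1.88-fold (1.35 to 2.64) lower, Gata6 at 91.3 against 145 CPM, 1.59-fold (1.35 to 1.87) lower, and Tcf21 at 94.4 against 126 CPM. The same direction was seen for surface and signalling genes. Tm4sf5 was at 15.8 against 72.4 CPM. Wnt4, a ligand of gonad and kidney, was at 17.0 against 112 CPM. Hoxd9 was at 15.02 against 116 CPM. In cells with the set, Hoxd9 thus lay below the other cells of the library (33.3 CPM), and Lhx9 was not above them (35.6 CPM, within its own interval of 24.8 to 38.8), while Tm4sf5 was (3.94 CPM). Cells with 2 or more UMIs were the deeper ones, with a median of 13811 against 11587 UMIs, and the part of depth in these differences was not tested.

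Some mesothelial genes had overlapping intervals on the 2 sides of the split, while others were lower with the set. Upk3b chose the cells on both sides and is left out here. Upk1b was at 50.5 CPM with the set and 57.8 CPM without, against 3.05 CPM in the other cells of the library. Bnc1, an epithelial zinc finger gene, was at 53.9 and 55.2 CPM, against 9.21 CPM, and Podxl, a surface sialomucin, at 82.1 and 98.0 CPM, against 13.5 CPM. Krt19 and Lrrn4 were lower with the set, by 2.18-fold and 2.16-fold, but at 61.3 and 35.4 CPM were still above the other cells (14.1 and 5.96 CPM). Other genes, picked after their values were seen, were high where the set was present. Nkx2-3, a homeobox gene of gut mesenchyme, was at 82.4 CPM with the set and 1.10 without, and Barx1, a homeobox gene of stomach mesenchyme, at 27.0 and 4.75 CPM. Hlx and Isl1 were at 111 and 74.7 CPM with the set, against 5.12 and 6.22 CPM. Fst, which binds activin, was at 123 against 2.93 CPM, and Ccnd2, a D cyclin, at 1252 against 277 CPM. The E11.5 cells with the set thus had these 5 mesothelial genes above the other cells together with splanchnic ones, and they are called by those genes and not as gonadal epithelium.

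**Figure D3:**
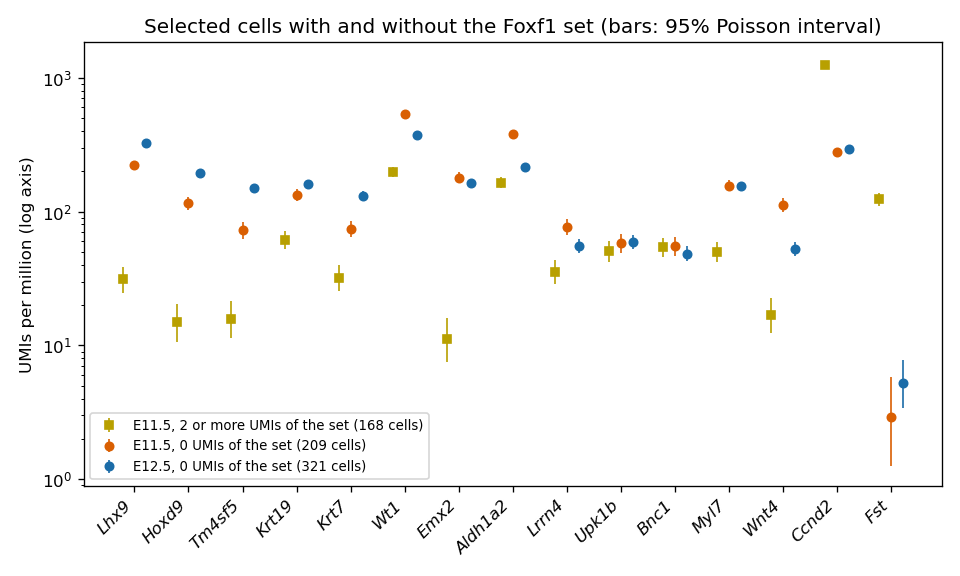
Levels of 15 genes on a log axis in CPM for E11.5 selected cells with 2 or more UMIs of the set (squares) and for cells with none at E11.5 and E12.5 (circles), with 95% Poisson intervals. Lhx9, Hoxd9, Tm4sf5 and Emx2 are lowest in the squares, Upk1b and Bnc1 lie close together, and Ccnd2 and Fst are highest in the squares.

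Between the ages, 6478 genes had at least 20 CPM in the selected cells of either age. Of these, 237 (3.66%) were at least 2-fold higher and 262 (4.04%) at least 2-fold lower at E12.5 on the CPM + 5 scale. In the other cells of the same libraries, 153 of the 237 were also at least 2-fold higher and 187 of the 262 at least 2-fold lower. The share of all 6478 genes past 2-fold in the other cells is not given here, so this overlap is a description. When selected cells with any UMI of the Foxf1 set were left out, an alternative added after the data were seen, 212 of 6473 genes (3.28%) were higher and 213 (3.29%) lower. Of these, 172 and 153 were among the genes called in all selected cells.

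Of the 15 measurable genes of the coelomic epithelium list other than Upk3b, 4 were at least 2-fold higher at E12.5 and none lower. The shares over all genes tested were 3.66% and 4.04%. Tm4sf5 was 3.28-fold (2.84 to 3.80) higher, Hoxd9 2.76-fold (2.45 to 3.11), Krt7 2.48-fold (2.16 to 2.86) and Lhx9 2.37-fold (2.18 to 2.59). With Upk3b at least 3 per 10000 UMIs of a cell, Lhx9 (log2 0.98) and Hoxd9 (log2 0.99) fell below 2-fold on the CPM + 5 scale, as did Lhx9 with every cell weighted alike (log2 0.94). Among cells without the set, 0 of the 15 genes were past 2-fold on the CPM + 5 scale. The plain CPM ratios there were 2.05 (1.75 to 2.42) for Tm4sf5, 1.68 (1.48 to 1.92) for Hoxd9, 1.75 (1.49 to 2.06) for Krt7 and 1.46 (1.33 to 1.61) for Lhx9. The direction of these 4 genes was the same without the set, and their ratios were smaller. Thinned to 5000 UMIs, the share of selected cells with a UMI of Lhx9 was 21.8% (17.8 to 26.2) at E11.5 and 55.8% (50.1 to 61.3) at E12.5, against 1.49% and 3.95% of endothelial cells (Cdh5 and Pecam1 at least 3 UMIs together, no Upk3b) and 0.746% and 7.55% of immune cells. Without thinning the shares were 26.7% and 66.5%. These shares of selected cells include the E11.5 cells with the set, where Lhx9 was lower.

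Wt1 had overlapping intervals in all selected cells, at 383 CPM (367 to 399.6) and 375 CPM (357 to 392). Without the set it was 1.42-fold (1.32 to 1.52) lower at E12.5. Aldh1a2, an enzyme that makes retinoic acid, was at 273 and 213 CPM, and without the set was 1.77-fold (1.63 to 1.94) lower at E12.5. Emx2 was at 99.9 and 163 CPM, with a ratio of 1.63 (1.46 to 1.82), or 0.911 (0.813 to 1.02) without the set. The age ratio of these 3 genes was lower without the set than with it.

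Of 13 measurable gonad transcription factors, 2 were at least 2-fold higher at E12.5 (Lhx9 and Nr5a1) and 2 lower (Tcf21 and Nr2f1). Among all genes tested these shares were 3.66% and 4.04%. Nr5a1, the steroidogenic factor of the gonad, had 42 UMIs at E11.5, 7.36 CPM (5.31 to 9.95), and 112 at E12.5, 23.3 CPM (19.2 to 28.1). Without the set it was at 11.7 and 23.5 CPM, no longer past 2-fold on the CPM + 5 scale. Like Lhx9, it was below 2-fold with Upk3b at least 3 per 10000 UMIs (log2 0.90). Tcf21, a helix-loop-helix factor of gonad and kidney mesoderm, was at 113 and 32.7 CPM, 3.46-fold (2.90 to 4.15) lower at E12.5, and 3.82-fold lower without the set. Gata4 was at 37.3 and 57.3 CPM and Gata6 at 128 and 232 CPM, neither past 2-fold. Without the set, 0 of the list were higher and 3 lower (Tcf21, Nr2f1 and Sox9).

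Hox genes give cells their position along the body axis. Of 15 measurable genes, 7 were at least 2-fold lower (Hoxa5, Hoxa9, Hoxa10, Hoxb6, Hoxb7, Hoxb8, Hoxc10) and Hoxd9 was higher. Their median log2 ratio was -0.80 in the selected cells and -1.15 in the other cells, against -0.11 and -0.07 over all genes tested. In the selected cells 4.04% of all genes tested were lower and 3.66% higher. Hoxb8 was at 29.8 and 0.625 CPM, and at 12.1 and 0.629 CPM without the set, where it was under the 20 CPM minimum and no longer counted. Without the set, 7 of 13 measurable Hox genes were lower (Hoxa5, Hoxa7, Hoxa9, Hoxa10, Hoxb7, Hoxc9, Hoxc10) and none higher. Hoxb6 also left that count, at 7.32 and 3.36 CPM, and Hoxa7 and Hoxc9 entered it.

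Of 14 measurable Wnt and R-spondin genes, 2 were higher and 2 lower, against 3.66% and 4.04% of all genes tested. Wnt5a, a ligand, was at 46.3 and 105 CPM, 2.28-fold (1.96 to 2.66) higher at E12.5, but below 2-fold on the CPM + 5 scale with every cell weighted alike (log2 0.98) and in cells with Xist and no Y-linked UMI (log2 0.95). Axin2, a target of canonical Wnt signalling, was at 17.2 and 67.3 CPM, 3.92-fold (3.12 to 4.97) higher, and 2.97-fold without the set. The antagonist Sfrp1 was 2.51-fold (2.28 to 2.76) lower and the receptor Fzd7 3.04-fold (2.07 to 4.59) lower, or below 2-fold when cells with markers of other types were left out (log2 -0.98). Without the set, Wnt5a and Axin2 were higher, and Sfrp1, Wnt4 and Znrf3 at least 2-fold lower, and Fzd7 was no longer past 2-fold. Wnt genes of the list thus went both ways.

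Kitl, the ligand of the Kit receptor, was at 11.2 CPM (8.64 to 14.3) and 70.3 CPM (63.0 to 78.2), 6.26-fold (4.78 to 8.31) higher at E12.5. Without the set it was at 17.6 and 70.7 CPM, 4.03-fold (2.97 to 5.57) higher. In the other cells Kitl was at 24.5 and 187 CPM, so it was higher at E12.5 on both sides. Of 18 measurable growth factors and receptors, Kitl, Gas6 and Hgf were at least 2-fold higher and Igf1 lower. Gas6, a ligand of TAM receptors, was at 11.2 and 46.9 CPM. Igf1 was at 109 and 41.5 CPM, and at 58.5 and 36.5 CPM without the set, and was below 2-fold in cells with Xist and no Y-linked UMI (log2 -0.75). Without the set, 4 of the list were at least 2-fold higher (Fgf9, Pdgfa, Gas6 and Kitl) and none lower. Of 13 BMP, activin and TGF-beta genes, Bmp2 and Id4 were higher and Bmp4 and Fst lower. Beside this list and the growth factors, 3.66% of all genes tested were higher and 4.04% lower. Bmp2 was at 8.24 and 26.7 CPM, and Bmp4 at 67.1 and 23.8 CPM. Without the set, Id4 and Tgfb3 were at least 2-fold higher and none lower. There Bmp2 was at 11.3 and 26.8 CPM, Bmp4 at 34.4 and 22.4 CPM, and Fst at 2.93 and 5.24 CPM, a ratio of 1.79 (0.783 to 4.595) whose interval holds 1.

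Of 7 measurable retinoic acid genes, 3 were at least 2-fold lower at E12.5 and none higher, against 4.04% and 3.66% of all genes. Crabp1, a retinoic acid binding protein, was at 69.2 and 13.1 CPM, 5.27-fold (4.03 to 6.99) lower. Stra6, the retinol transporter, was 3.70-fold (2.58 to 5.45) lower, and Rarb, a receptor that is itself a target, 2.47-fold (1.84 to 3.35) lower. Rarb fell below 2-fold on the CPM + 5 scale under several alternatives, from log2 -0.66 to -0.93. Without the set, 4 genes were at least 2-fold lower, these 3 and Crabp2, another binding protein. The median log2 ratio of the list was -0.72, and -0.86 in the other cells. Ptch1, receptor and target of Hedgehog signalling, was 2.25-fold (1.84 to 2.75) lower, or 1.18-fold (0.900 to 1.55) without the set, and fell below 2-fold under several other alternatives, from log2 -0.79 to -0.98.

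The 10 genes highest at E12.5 relative to E11.5 were Atf3, Lgals7, Btg2, Nr4a1, Egr1, Gadd45b, Hist1h2ap, Junb, Gadd45g and Stat3. Atf3, a stress-induced factor, was at 20.3 CPM (16.8 to 24.4) and 283 CPM (268 to 298), and at 15.1 and 90.2 CPM in the other cells. Egr1, an immediate-early factor, was at 32.8 and 314 CPM, and at 34.0 and 193 CPM in the other cells. Lgals7, a galectin, was at 15.8 and 193 CPM, and at 26.0 and 719.9 CPM in the other cells. Without the Foxf1 set it was at 30.7 and 194 CPM, 6.31-fold (5.05 to 7.99) higher at E12.5, against 12.2-fold (9.86 to 15.4) in all selected cells. Atf3, Egr1 and Lgals7 were higher at E12.5 in both selected and other cells. Of 12 genes known to respond to tissue dissociation, 9 were at least 2-fold higher at E12.5 and none lower, with a median log2 ratio of 1.55, and 1.15 in the other cells. Without the Foxf1 set, 8 of the 12 were at least 2-fold higher. The share of all genes tested was 3.66% in all selected cells and 3.28% without the set. The labels give the same dissociation time for both libraries, and the part of handling was not tested.

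Among the 10 lowest were Foxf1, Mab21l2, Hand1, Lum, Nrp2, Hbb-bh1, Igdcc3, Hoxb2 and Hlx. Hbb-bh1 is a haemoglobin, and the UMIs of those genes lay largely in a few cells. Foxf1 was at 136 CPM (127 to 146) at E11.5 with no UMI at E12.5, at least 218-fold lower against a floor of 3 UMIs over the selected cells. Mab21l2 was at least 187-fold lower on the same floor. Lum, a matrix proteoglycan, and Nrp2, a semaphorin receptor, were at 79.1 and 95.01 CPM at E11.5, but at 6.58 and 6.95 CPM in its cells without the set. Igdcc3, an immunoglobulin family surface protein, was at 88.3 and 5.42 CPM, 16.3-fold (10.99 to 25.2) lower at E12.5, and 12.9-fold (8.57 to 20.3) lower without the set. Lum and Nrp2 were thus low in E11.5 cells without the set, while Igdcc3 was not.

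Cycling was compared in cells thinned to 5000 UMIs. The share of selected cells with at least 3 UMIs of the 26 G2/M genes was 77.2% (72.7 to 81.3) at E11.5 and 50.2% (44.6 to 55.8) at E12.5, and among the other cells 71.9% and 35.3%. Without thinning the selected cells gave 83.7% and 62.1%. At E11.5 the thinned share was 69.5% (62.6 to 75.8) in cells without the set and 86.7% (80.5 to 91.5) in cells with 2 or more UMIs of it. The share was thus lower at E12.5 in selected and other cells alike. Mki67, a proliferation marker, went against this, at 63.1 and 118 CPM, and so did Hist1h2ap, a histone gene, at 180.4 and 1072 CPM. Of 22 S phase genes, 4 were at least 2-fold lower at E12.5 (Pcna, Rrm2, Pclaf, Fen1) and none higher, and without the Foxf1 set 2 were (Pcna and Rrm2), with Pclaf 1.93-fold (1.81 to 2.06) and Fen1 1.81-fold (1.49 to 2.22) lower. Of 26 G2/M genes, 1 (Ccnb1) was at least 2-fold lower, also without the set, and none higher. Of all genes tested 4.04% were lower and 3.66% higher, so the G2/M count lay near the share of all genes.

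Selected cells under 3 UMIs of the G2/M list were compared with the rest on the same thinned counts. At E12.5, Krt19 was at 282 CPM in 160 cells under 3 UMIs and at 94.4 CPM in 161 cells with 3 or more. At E11.5 these were 222 CPM in 89 cells and 81.1 CPM in 301. Lhx9 was at 196 and 360.2 CPM at E12.5, and at 209 and 119 CPM at E11.5. At E11.5 the Foxf1 set moved with this split, with Foxf1 at 51.7 and 167 CPM. In the E11.5 cells without the set, Krt19 was at 219.7 CPM in 61 cells and 102 CPM in 139, and Lhx9 at 275 and 193 CPM, in the same orders as in all selected cells. Krt19 was higher in cells with few G2/M UMIs at both ages, whereas Lhx9 took opposite orders at the 2 ages.

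Cells without the Foxf1 set also differed by Gata4, a zinc finger factor of the early gonad. At E11.5, 151 of them had no Gata4 UMI and 27 had 2 or more, and at E12.5 these were 172 and 72. The cells with Gata4 were deeper, with medians of 12815 against 11217 UMIs at E11.5 and 18348 against 11453 at E12.5, and the part of depth was not tested. Lhx9 was at 99.0 CPM without Gata4 and 593 CPM with it at E11.5, 6.00-fold (4.93 to 7.30) higher. At E12.5 it was at 193 and 451 CPM, 2.34-fold (2.07 to 2.65) higher. Myl7 was 4.85-fold (3.80 to 6.20) higher with Gata4 at E11.5 and 3.83-fold (3.11 to 4.73) at E12.5. Nr5a1, Gata6, Hoxd9 and Tcf21 were also higher with Gata4 at both ages.

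The keratins Krt18 and Krt19 went the other way. Krt18 was at 298 CPM without Gata4 and 101 CPM with it at E11.5, 2.95-fold (2.13 to 4.19) lower, and 2.08-fold (1.72 to 2.51) lower at E12.5. Krt19 was at 151 and 88.1 CPM at E11.5, and at 229 and 91.6 CPM at E12.5. Wnt4 was at 145 and 13.0 CPM at E11.5, and at 78.003 and 33.4 CPM at E12.5. All 3 were lower with Gata4 at both ages. Upk1b was at 57.9 and 54.4 CPM at E11.5, but 2.31-fold (1.67 to 3.23) lower with Gata4 at E12.5.

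**Figure D4:**
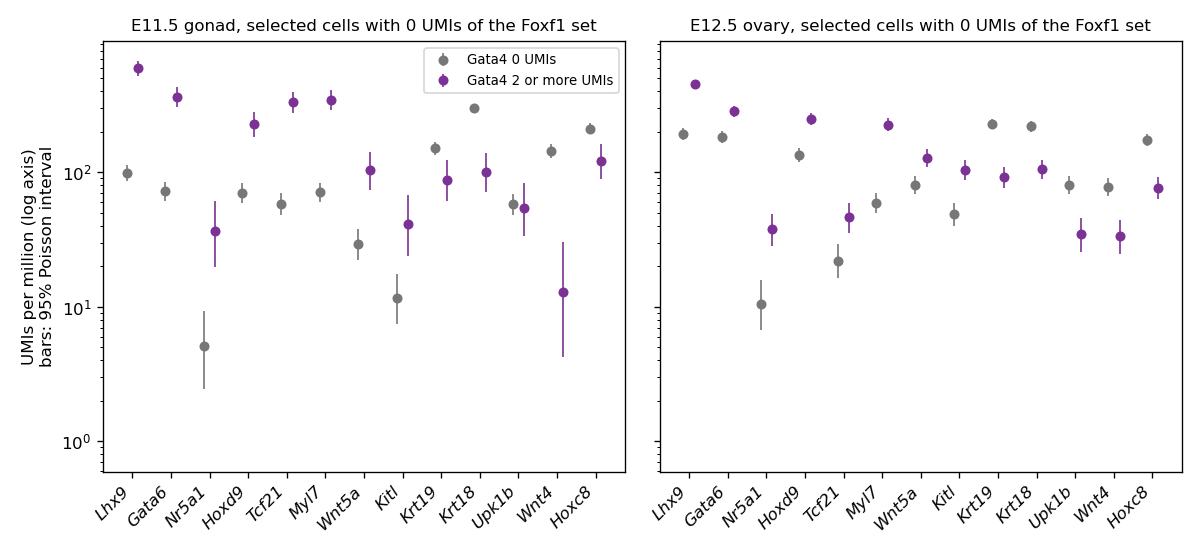
Levels of 13 genes on a log axis in CPM in selected cells with 0 UMIs of the Foxf1 set, for cells without Gata4 (grey) and with 2 or more Gata4 UMIs (purple), with 95% Poisson intervals, at E11.5 (left) and E12.5 (right). Lhx9, Gata6, Nr5a1, Hoxd9, Tcf21 and Myl7 are higher in purple, and Krt19, Krt18 and Wnt4 in grey, at both ages.

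Supporting-type cells (Wnt6 at least 3 UMIs, no Upk3b, Pax8 at most 1) numbered 129 at E11.5 and 1073 at E12.5. Nr5a1 was at 87.8 and 63.5 CPM in them, against 7.36 and 23.3 CPM in the selected cells. Kitl was 25.1-fold and 6.60-fold lower in the selected cells than in supporting-type cells, which had 282 and 464 CPM. In E11.5 selected cells without the Foxf1 set the levels of Nr5a1 and Kitl were 11.7 and 17.6 CPM, so these gaps were smaller there. Lhx9 was at 215 CPM in supporting-type cells at E11.5, above the selected cells, and at 189.6 CPM at E12.5, below them. In selected cells without the Foxf1 set, Lhx9 was at 222 CPM at E11.5 (205 to 240.4), an interval that overlaps that of supporting-type cells (193 to 239.7). Gata4-negative mesenchymal cells (Nr2f2 and Pdgfra at least 3 UMIs together, no Upk3b or Gata4) had Krt19 at 7.10 and 13.1 CPM. Krt19, Upk1b, Lrrn4 and Tm4sf5 were higher in the selected cells than in both of these classes at both ages. Both classes were picked to have no Upk3b, so this contrast is a description. A class of Gata4-positive cells without Upk3b (99 at E11.5 and 42 at E12.5) is not reported here.

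Immune, germ cell and tubule markers were lower in the selected cells than in the other cells. The 7 immune markers summed to 4.03 and 3.75 CPM, with Ptprc at 0 at E11.5, and to 98.0 and 123 CPM in the other cells. Germ cell markers beyond the rule genes summed to 2.80 and 12.1 CPM, against 50.7 and 627 CPM, and mesonephric tubule markers to 15.4 and 18.1 CPM, against 57.1 and 123 CPM. Endothelial markers summed to 41.7 and 92.6 CPM, against 69.9 and 99.2 CPM, with Egfl7 (31.2 CPM) and Kdr (39.4 CPM) the most abundant. At E12.5, 1 selected cell held 142 of their 444 UMIs (32.0%), and without it the sum was 63.6 CPM. Mesenchymal markers were not lower, and summed to 1035 and 764 CPM, against 879 and 652 CPM in the other cells, with Col3a1 (313 CPM) and Nr2f2 (303 CPM) the most abundant. Supporting cell markers beyond the rule genes summed to 229 and 243 CPM, against 246 and 956 CPM. The part of other cell types in the age differences was not tested. Haemoglobins took 1.15% of the selected cells' UMIs at E11.5 and 0.591% at E12.5, but 0.0976% and 0.0963% in the median cell, with 4 cells and 1 cell over 1%. A single cell held 32.5% of the erythroid marker UMIs of the selected cells at E11.5, and a single cell 83.8% at E12.5. Without that cell the E12.5 sum fell from 5789 to 943 CPM. Haemoglobins were also the most dispersed genes. Among the rest with at least 100 CPM, Myl7 and Col1a1 varied most at E11.5 (coefficient of variation beyond counting 2.50 and 2.19) and Nudt4 and Gadd45g at E12.5 (4.47 and 2.08).

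In the later ovary libraries the rule found 153 cells at E14.5 and 114 at E16.5, then 17, 31 and 26 in the E18.5, P1 and P5 libraries. These numbers depend on the Wnt6 limit of the rule. Of cells with at least 3 UMIs of Upk3b, it left out 18 of 424 at E11.5 and 61 of 388 at E12.5, but 168 of 336 at E14.5, 381 of 502 at E16.5, 70 of 88 at E18.5, 96 of 133 at P1 and 149 of 181 at P5, so they are not a measure of how much epithelium there was. The later libraries were dissociated for longer, from 40 to 80 minutes. Msln, with no UMI in the early cells, was at 45.3 CPM (35.9 to 56.3) at E16.5 and 289 CPM (230.1 to 358) at P5. Krt19 was at 171 CPM at E14.5, 425 CPM at E16.5 and 1455 CPM (1319 to 1602) at P5. Both mesothelial genes were highest in the last library. The levels of all genes in the later libraries describe only the cells that passed. At P5 these were 26 of 181 cells with at least 3 UMIs of Upk3b. Myl7 was at 63.3 CPM at E14.5 and 30.5 CPM at E16.5. It had no UMI at E18.5 or P5, where 3 UMIs would have been 18.7 and 10.4 CPM. Hoxd9 was highest at E12.5 of the 7 libraries. Myl7 was highest there too in all selected cells, but in cells without the Foxf1 set it was at 156 CPM at E11.5 and 155 CPM at E12.5, and in cells with Xist and no Y-linked UMI at 131 and 119 CPM. Lgr5, a receptor for R-spondins, had 3 UMIs at E11.5 and 26 at E12.5 (5.42 CPM), and was at 41.4 CPM (31.2 to 53.9) at E14.5.

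**Figure D5:**
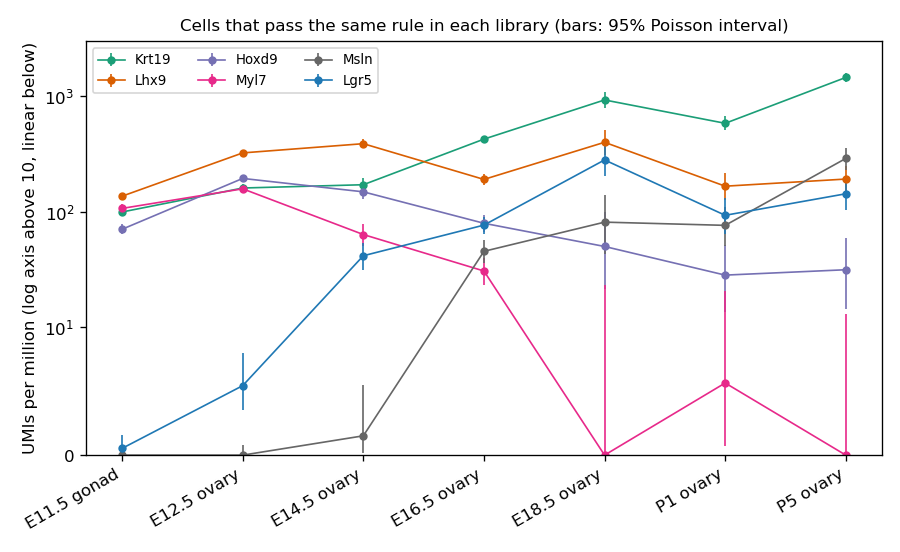
Levels of 6 genes in CPM (log axis above 10, linear below) in the cells that pass the same rule in each of the 7 libraries, 1 point per library with its 95% Poisson interval. Msln is at 0 at E11.5 and E12.5 and at 289 CPM at P5, Krt19 is highest at P5, and Hoxd9 is highest at E12.5, as is Myl7 in all selected cells, though not in those without the Foxf1 set or with Xist and no Y-linked UMI.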

How the data were processed

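Per the labels, the authors captured single cells with 10x Chromium v2 chemistry and counted UMIs with Cell Ranger 3.1.0 on mm10. The deposited matrices hold raw UMI counts for 31053 genes. Cells with at least 1000 genes were kept, and no doublet caller was run, but cells with the most UMIs (5%) or with markers of other types were dropped as alternatives. UMIs were summed over the cells of a group and divided by their total (CPM). A gene was past the fold at 2-fold on CPM + 5, among genes with at least 20 CPM. Genes were named from 25 lists, as the 10 highest and 10 lowest by age and the 15 leading over the other cells (at least 50 CPM), and as the 5 most dispersed (at least 100 CPM), and some are not reported here. Selected cells and lists were chosen with earlier results of these data known. Shares of cells were taken with each cell thinned once to 5000 UMIs. Ratios, intervals and thinning were tested on simulated data, in Python 3.11.15 with numpy 2.4.6, scipy 1.17.1 and pandas 2.3.3. With 1 library per age no test was run.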

Additional observations from a re-analysis of the deposited data

Results flagged for a closer look

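Fst went in opposite directions in the selected cells and in the other cells. Its log2 ratio of E12.5 to E11.5 on the CPM + 5 scale was -2.62 in the selected cells and 3.38 in the other cells, and the difference was not tested. In selected cells without the Foxf1 set, Fst was at 2.93 CPM at E11.5 and 5.24 CPM at E12.5.

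Y-linked UMIs (Ddx3y, Eif2s3y, Kdm5d or Uty) were in 29 of 322 selected cells of the library labelled E12.5 ovary (9.01%, 6.11 to 12.7), and in 298 of its other cells (7.60%, 6.79 to 8.47). In the E11.5 gonad they were in 148 of 405 selected cells (36.5%, 31.8 to 41.4), and in 2170 of its other cells (28.7%, 27.7 to 29.7). Ddx3y at E12.5, in cells without the Foxf1 set, was at 0.918 CPM without Gata4 and 13.5 CPM with 2 or more Gata4 UMIs, and the part of sex in the Gata4 pattern was not tested.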

How the results depend on the processing

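The selected cells depended on the Upk3b minimum. At 5 UMIs there were 206 at E11.5 and 190 at E12.5 (2.58% and 4.48% of cells), at 2 UMIs 7.30% and 9.47%, and at 3 per 10000 UMIs 4.24% and 5.82%. The share was higher at E12.5 in each of these. With at least 50 CPM, 125 genes were higher and 170 lower at E12.5, and with a pseudocount of 20, 100 and 107. Genes above the other cells in both libraries numbered 68 with no filter and 26 with a pseudocount of 20. The next alternatives were added after the data were seen. Without cells of the Foxf1 set, Fst (log2 0.37), Ccnd2 (log2 0.070), Emx2 (log2 -0.13) and Myl7 (log2 -0.0095) turned direction. In cells with Xist and no Y-linked UMI, 243 genes were higher and 319 lower, of which 206 and 237 were among those called in all selected cells. There Myl7 (log2 -0.13) and Pdgfra (log2 -0.37) turned. Of 806 log2 ratios of named genes over all alternatives, 493 stayed within the counting interval, among them 8 near 0 of the other sign. Outside it, 304 kept their direction, 6 turned, as named above, and 3 (the genes of the set, in cells without it) were 0 by construction. Of 46 named genes at least 2-fold apart between the ages, 16 fell below 2-fold under at least 1 alternative other than those added ones. With a pseudocount of 20 these were, with their log2 ratios, Nr5a1 (0.66), Wnt5a (0.92), Fzd7 (-0.62), Hgf (0.67), Bmp2 (0.73), Bmp4 (-0.99), Stra6 (-0.81), Rarb (-0.66), Ptch1 (-0.79), Twist1 (-0.90), Vcan (-0.77), Itga6 (0.66) and Fen1 (-0.91). Those lost under another alternative are given beside their values. No paired analysis was possible because each age had 1 library, so no library could be left out either. The depth limits single genes to 3 UMIs, 0.526 CPM at E11.5 and 0.625 CPM at E12.5.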

Other observations

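Of 24 basement membrane and matrix genes, 18 were measurable between the ages, with Col1a1 and Vcan at least 2-fold lower at E12.5 and none higher. Beside this and the lists that follow, 4.04% of all genes tested were lower and 3.66% higher. Col1a1, a fibrillar collagen, was at 150.0 and 58.0 CPM. In cells without the Foxf1 set neither was past 2-fold, with Col1a1 1.62-fold (1.34 to 1.94) and Vcan 1.34-fold (0.980 to 1.82) lower. Over the other alternatives that end the call, Vcan lay from log2 -0.72 to -0.96, and Col1a1 was at log2 -0.96 with Upk3b at least 5 UMIs. Sparc, a matrix glycoprotein, was the most abundant of the list, at 653 and 907 CPM. Of 8 measurable genes of mesenchymal transition, Twist1 was 4.92-fold (3.26 to 7.70) lower and Twist2 5.62-fold (3.87 to 8.43) lower at E12.5, and in cells without the Foxf1 set they were 6.01-fold and 3.60-fold lower. Fgf9, a growth factor made by mesothelium, was at 33.3 and 50.4 CPM, against 8.91 and 12.2 CPM in the other cells. Of 12 Notch genes, 2 were measurable and neither was past 2-fold, with Hes1 at 314 and 426 CPM. Of 10 measurable polarity and junction genes, Itga6, an integrin of epithelia, was past 2-fold, at 13.5 and 32.9 CPM. Without the Foxf1 set it was 1.62-fold (1.19 to 2.24) higher and not past 2-fold, and over the other alternatives that end the call it lay from log2 0.64 to 0.96, and without the set F11r, a tight junction protein, was 2.12-fold (1.75 to 2.57) lower. Of 4 measurable cell cycle inhibitors and D cyclins, Ccnd2 was lower at E12.5, but not without the Foxf1 set (277 and 291 CPM), while Cdkn1c, an inhibitor, was the most abundant at 932 and 768 CPM.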
